A study of Mus musculus with 12 samples.

Results

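Chromatin accessibility was compared between long-term haematopoietic stem cells (LT-HSC) that lack Phf6 and LT-HSC of wild-type mice. The comparison uses 6 of the 12 libraries of the series, the 3 knockout (KO) and 3 wild-type (WT) libraries whose labels give LT-HSC as the cell type, and every region of the deposited count table. All mice were male. WT mice carried a floxed Phf6 allele and no Cre (genotype Phf6f/Y Rosa26+/+), and KO mice carried the deleted allele with a Cre-ERT2 at Rosa26 (genotype Phf6-/Y Rosa26+/Cre-ERT2). Nuclei of 20000 sorted LT-HSC were taken 8 weeks after tamoxifen from both genotypes and sequenced in 1 pool, per the labels. Rosa26 is active in most cell types, so the deletion is not limited to stem cells. Every KO library and no WT library has Cre-ERT2, so an effect of Cre-ERT2 and the loss of Phf6 cannot be told apart here. The other 6 libraries, of multipotent progenitors (MPP) of the same genotypes, serve below as a second set of samples. The sources used here do not give how MPP were prepared or whether they come from the same animals. The LT-HSC libraries are from separate mice, per the labels.

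LT-HSC are the rare, mostly quiescent marrow cells that can rebuild all blood lineages for life. Phf6 is an X-linked gene for a nuclear and nucleolar protein with PHD-type zinc fingers that binds chromatin and meets the NuRD remodelling complex. It is lost or mutated in T-cell acute lymphoblastic leukaemia and other blood cancers. ATAC-seq measures open chromatin, since the Tn5 transposase inserts adapters where DNA is free of packed nucleosomes, and promoters and enhancers appear as regions with many reads. In these bulk libraries, more cells with an open region cannot be told apart from a region that is open more often in each cell.

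The 3 WT LT-HSC libraries held 34039249, 34859604 and 33356932 counts in the 188262 regions, and KO libraries 1, 2 and 3 held 37008294, 28576266 and 22665988. Of these regions 176424 had counts high enough to be tested and 11838 did not. Levels below are CPM, the reads of a region scaled to library size with TMM factors. Replicates correlated at 0.972 to 0.980 on log2 CPM. On the leading principal component (35.5% of variance) WT lay apart from KO, with KO 3, the library of lowest depth, farthest from WT. Promoter and gene-end regions took 41.0% to 41.5% of counts in KO and 39.6% to 40.7% in WT. The strongest region of all took 1.87% of the counts of WT 1 and 0.973% to 1.35% of the others. Promoters of stem cell genes were open in all 12 libraries. The promoter of Procr, which encodes the EPCR surface marker of LT-HSC, had a median of 10.8 CPM in LT-HSC and 7.34 CPM in MPP. The Flt3 and Cd48 promoters, genes of progenitors, had medians of 34.7 and 4.29 CPM in LT-HSC and 55.0 and 7.97 CPM in MPP. The Cd3e promoter of T cells stayed at 0.716 to 1.04 CPM in LT-HSC.

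None of the 10 regions at Phf6 passed the test in LT-HSC. The main region at the end of the gene (GRCm38 chromosome X, 52912011 to 52912448) held 25.7, 27.6 and 27.4 CPM in WT and 28.8, 27.2 and 26.8 CPM in KO, a log2 fold change of 0.04 ± 0.06 (edgeR adjusted p = 0.795). The 2 groups overlapped there. A deletion of exons need not change accessibility at the ends of a gene, so these values do not check the knockout.

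Sequences of promoters that rose are shown first, since heat shock and immediate early genes rose most often. Each is a window of 300 bases around the RefSeq start (assembly GRCm38.p6), written 5′ to 3′ on the strand of the gene. Hspa1a and Hspa1b encode the inducible HSP70 chaperones and Hsph1 an HSP110-type chaperone, while Egr2 and Erg encode transcription factors of the immediate early response and of stem cell maintenance. Hspa1a is at chr17:34972107-34972406 (minus strand), Hspa1b at chr17:34959189-34959488 (minus), Hsph1 at chr5:149636287-149636586 (minus), Egr2 at chr10:67537316-67537615 (plus) and Erg at chr16:95459299-95459598 (minus). Capitals mark a heat shock element in Hsph1 and a GATA motif in Erg. Hsph1 was added after its values were seen, because it carries the heat shock element. The element was not found in the windows of Hspa1a, Hspa1b, Ahsa1, Dnaja1, Ubb, Dnajb1, Fkbp4, Cacybp or Hspb1. These are other heat shock genes of the lists below whose promoter region rose.
Hspa1a: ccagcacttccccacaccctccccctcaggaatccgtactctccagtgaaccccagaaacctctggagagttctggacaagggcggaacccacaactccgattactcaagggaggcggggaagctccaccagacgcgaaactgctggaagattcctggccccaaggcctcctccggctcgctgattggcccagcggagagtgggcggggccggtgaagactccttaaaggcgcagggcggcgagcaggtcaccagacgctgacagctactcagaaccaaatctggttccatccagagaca
Hspa1b: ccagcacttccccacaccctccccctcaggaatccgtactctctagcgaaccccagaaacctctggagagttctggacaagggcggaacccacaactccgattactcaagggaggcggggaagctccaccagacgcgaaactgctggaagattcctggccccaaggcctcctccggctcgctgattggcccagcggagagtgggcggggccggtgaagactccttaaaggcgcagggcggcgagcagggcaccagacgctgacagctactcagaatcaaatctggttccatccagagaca
Hsph1: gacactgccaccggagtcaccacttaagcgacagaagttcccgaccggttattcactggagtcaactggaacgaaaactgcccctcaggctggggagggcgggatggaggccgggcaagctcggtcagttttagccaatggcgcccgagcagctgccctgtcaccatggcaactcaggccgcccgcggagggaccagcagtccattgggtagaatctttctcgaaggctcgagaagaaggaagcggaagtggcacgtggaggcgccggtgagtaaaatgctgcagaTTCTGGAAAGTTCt
Egr2: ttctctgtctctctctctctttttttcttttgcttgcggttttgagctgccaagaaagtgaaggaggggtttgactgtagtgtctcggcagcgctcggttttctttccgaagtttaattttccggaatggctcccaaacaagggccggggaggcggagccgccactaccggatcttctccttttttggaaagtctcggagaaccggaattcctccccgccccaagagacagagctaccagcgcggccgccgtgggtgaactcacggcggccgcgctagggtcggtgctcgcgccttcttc
Erg: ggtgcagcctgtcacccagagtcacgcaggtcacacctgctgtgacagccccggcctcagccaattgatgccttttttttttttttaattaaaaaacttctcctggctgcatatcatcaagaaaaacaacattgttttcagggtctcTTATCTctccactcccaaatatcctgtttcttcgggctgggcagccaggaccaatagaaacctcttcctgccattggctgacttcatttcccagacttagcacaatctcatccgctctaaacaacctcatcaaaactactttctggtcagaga

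The accessible region over each window rose in KO, with log2 fold changes of 0.55 at Hspa1a, 0.51 at Hspa1b, 0.24 at Hsph1, 0.50 at Egr2 and 0.50 at Erg (adjusted p = 2.62e-05, 6e-05, 0.00366, 6.21e-06 and 7.48e-05). The Hspa1a and Hspa1b windows differ at 4 of 300 bases, so reads of these near-identical copies may be split or dropped by the mapping, and values of either gene are uncertain.

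The letters of 5 motifs were counted on both strands of 32851 RefSeq promoter windows of this length. The heat shock element was searched as 3 alternating GAA and TTC units with 2 free bases between units and was found in 0.603% of windows. Of 57 tested regions over such windows 12 rose (21.1%), against 10.4% of 13607 regions over windows without it. The cyclic AMP response element TGACGTCA was in 1.79% of windows, and 64 of its 401 tested regions rose (16.0%), against 10.3% without it. The AP-1 motif TGANTCA was in 7.81% of windows, and 10.2% of regions with it and 10.4% without it rose. The motif of GATA factors, AGATAA, was in 11.2% of windows, and 10.6% of regions with it and 10.4% without it rose. The RUNX motif TGTGGT was in 16.8% of windows, and 10% of regions with it and 10.5% without it rose. These matches are letters in a window and were not tested against chance.

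In KO LT-HSC 5489 regions rose (3.11% of those tested) and 2676 fell (1.52%), so that 4.63% changed. Gains were small and lay at strong regions, with a median log2 fold change of 0.43 and a median level of 9.91 CPM, while losses were larger and lay at weaker ones, with a median of -0.79 and a level of 2.03 CPM. Only 179 gains reached 2-fold (3.26% of gains), against 894 losses (33.4%). All tested regions had a median level of 2.01 CPM. Gains and losses of similar level were closer in size, as given below. A gap separated all 3 KO from all 3 WT libraries at 5393 of the gains and 2574 of the losses, and over all tested regions at 13.0% (KO above WT) and 11.5% (KO below WT). Without WT 1, KO 1, KO 2 or KO 3 the gains numbered 3056, 2870, 1875 and 2677, and without these or WT 2 the losses numbered 1381, 1236, 632, 1080 and 1740. The balance of the directions moved with the scaling. Gains were 67.2% of calls with TMM, 47.8% with total counts (3202 rose, 3503 fell), 53.6% with a loess offset on level (3055 and 2643) and 80.8% with DESeq2 (3622 and 862). With the share of counts in promoter and gene-end regions as a covariate 395 rose and 154 fell. That share was higher in each KO library than in any WT library, so it and genotype cannot be told apart. Total counts shifted the median log2 fold change of all regions from -0.01 to -0.05.

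Promoters took a large part of the gains. Of 17652 tested regions within 1 kb of a listed start 1670 rose (9.46%) and 180 fell (1.02%). Among gene-body regions 1882 of 83070 rose and 1067 fell, and among intergenic regions 1634 of 70516 rose and 1370 fell, 576 of them by 2-fold or more. Strong regions were called higher more often, at promoters and elsewhere, from 0.133% in the lowest to 9.56% in the highest of 5 equal level classes of all regions, while 1.36% to 1.71% of each level class fell. In the highest level class 13.3% of promoter regions and 7.66% of gene-body and intergenic regions rose. Within each level class the median sizes of gains and losses lay closer together than over all calls. They were 0.34 and -0.37 in the highest class and 0.71 and -0.75 in the middle class. Over all tested regions the median log2 fold change went from -0.2 in the lowest class to 0.06 in the highest. With the loess offset, which removes each library's trend on level, 717 promoter regions rose and 363 fell (4.06% and 2.06%). Without WT 1, KO 1, KO 2 or KO 3, 986, 866, 725 and 920 promoter regions rose.

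**Figure D1:**
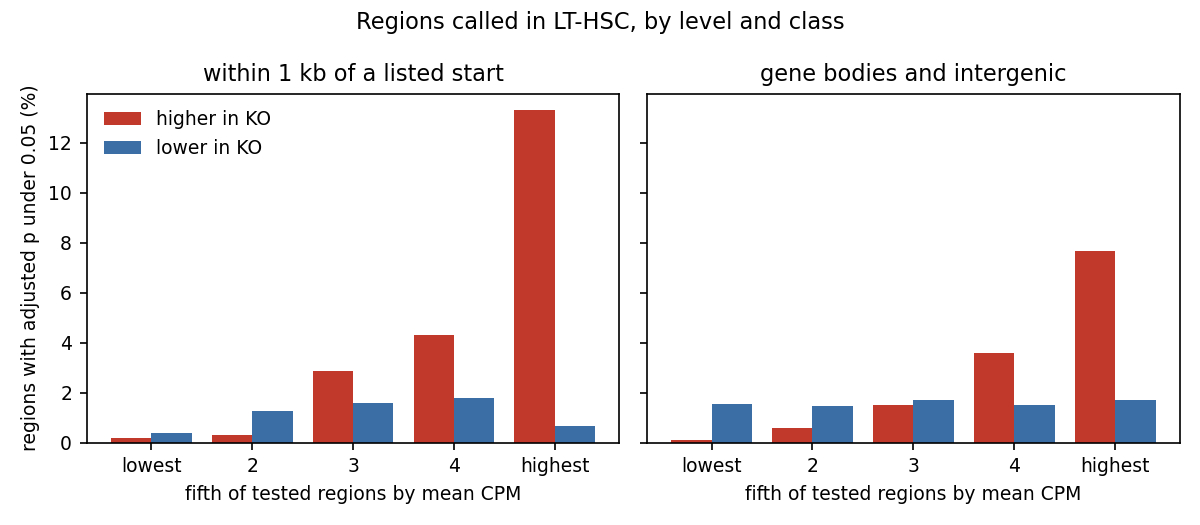
Share of tested regions that passed an adjusted p of 0.05 in KO against WT LT-HSC (y axis, %), in 5 equal classes of all tested regions by mean CPM (x axis), for promoter regions (left) and for gene-body and intergenic regions (right). Red bars are regions higher in KO and blue bars regions lower in KO. The red share climbs with level, to 13.3% of promoter regions in the highest class, and the blue share does not.

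Heat shock chaperone genes rose most. These genes encode proteins that fold or disaggregate other proteins and many of them are switched on within minutes by the factor HSF1. In the list of chaperones, co-chaperones and ubiquitin genes 54 of 177 tested regions rose (30.5%, against 3.11% of all) and none fell, at 18 of 26 genes with a tested region. The median log2 fold change was 0.20, against -0.01 over all regions. At most 1 region fell in any alternative, and 43 to 56 rose when 1 library was left out. With DESeq2 32 rose, and 34 with the promoter and gene-end share as a covariate. In the highest level class 35 of the list's 60 regions rose (58.3%, against 9.56% of all).

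Hsph1 had the largest rise among the named regions above the median level. Its region in the gene body (chromosome 5, 149628445 to 149629619) held 0.727, 0.256 and 1.94 CPM in WT libraries 1, 2 and 3 and 5.89, 6.08 and 7.96 CPM in KO. Regions of largest change were named only where KO and WT did not overlap, so every KO library was above every WT library by selection. Means were 6.64 ± 1.14 CPM in KO and 0.975 ± 0.870 CPM in WT (SD, n = 3). The log2 fold change was 2.76 ± 0.28 (edgeR adjusted p = 2.53e-06). Hspa1b past its 3′ end (chromosome 17, 34955421 to 34956324) held 5.03, 0.880 and 11.4 CPM in WT and 22.1, 22.3 and 34.5 CPM in KO. The WT libraries spanned a wider ratio than the KO libraries, and the log2 fold change was 2.18 ± 0.31 (adjusted p = 0.000173, but 0.154 with DESeq2). Hspa1a had the same pattern, with 5.90, 0.994 and 14.0 CPM in WT and 20.6, 23.0 and 33.9 CPM in KO. Its log2 fold change of 1.88 ± 0.33 became 2.89 without WT 3, and its adjusted p of 0.00116 became 0.259 with DESeq2. Hspa8, the constitutive HSC70 chaperone, held 7.27, 3.61 and 15.3 CPM in WT and 17.0, 20.4 and 30.8 CPM in KO (1.37 ± 0.25, adjusted p = 0.00155, but 0.199 with DESeq2). With the promoter and gene-end share as a covariate the log2 fold changes of Hspa1b, Hspa1a and Hspa8 here were 4.11, 4.0 and 2.76. At these 4 genes WT 2 was the lowest and WT 3 the highest of the WT libraries. By the naming rule no WT library reached the lowest KO library.

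Co-chaperones and ubiquitin genes moved with them. Dnajb4, an HSP40-type partner of HSP70, held 0.640, 0.341 and 1.03 CPM in WT and 3.52, 4.70 and 4.41 CPM in KO at a gene-body region (chromosome 3, 152183191 to 152183994), a log2 fold change of 2.64 ± 0.23 (adjusted p = 3.69e-07). Dnajb1, another HSP40-type gene, held 1.42, 1.02 and 3.41 CPM in WT and 5.97, 8.11 and 8.41 CPM in KO (1.93 ± 0.23). Hsp90aa1, the inducible HSP90, rose from 2.97, 1.53 and 4.27 CPM to 9.0, 11.3 and 16.8 CPM (2.06 ± 0.21, and 3.31 with the covariate). These 3 calls were kept under all 17 alternatives. The polyubiquitin gene Ubb had 4 of 6 regions higher, and the mitochondrial chaperonin gene Hspd1 had 2 of 3. No region of Hsf1, of the small heat shock protein gene Hspb8 or of the co-chaperones Bag3 and Stip1 passed.

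Immediate early genes, which are induced within minutes of a stimulus without new protein synthesis, were the second group. The AP-1 list holds genes of the Fos, Jun and Atf families, whose proteins form this dimeric factor, and Batf, Batf3 and Maff. Of its 150 regions 31 rose (20.7%) and none fell, at 8 of 11 genes. Of 276 regions at other immediate early genes 41 rose (14.9%) and 2 fell, at 15 and 2 of 21 genes. Without KO 3 or WT 2 the latter count was 24 and 27 gains. With DESeq2 17 and 23 regions of the 2 groups rose, and with the covariate 22 and 23. In the highest level class 42.9% of AP-1 regions and 24.8% of the others rose, against 9.56% of all. Fos led, with 11 of 36 regions higher and none lower, followed by Klf6, a Krüppel-like factor (9 of 25), Fosb (7 of 14), the orphan receptor gene Nr4a1 (6 of 17), Atf3 (5 of 15), the phosphatase gene Dusp1 (4 of 15) and Jun (3 of 28). No region of Fosl1, Jund, Egr3, Ier3, Gadd45b or Srf passed.

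Fos held 8.00, 4.34 and 11.1 CPM in WT and 17.5, 21.4 and 25.9 CPM in KO past its 3′ end (chromosome 12, 85478288 to 85479018). The naming rule required groups that do not overlap. The log2 fold change was 1.46 ± 0.17 (adjusted p = 1.66e-05), and 2.52 with the covariate. Klf6 held 3.11, 2.78 and 4.27 CPM in WT and 6.91, 9.07 and 8.50 CPM in KO at a gene-body region (1.26 ± 0.14, adjusted p = 1.21e-05). Fosb varied widely in WT, with 12, 3.78 and 29.7 CPM against 37.1, 37.6 and 38.8 CPM in KO at 1 region. That region's log2 fold change of 1.32 ± 0.29 was 0.86 without WT 2, 2.27 without WT 3 and 2.89 with the covariate, and its call (adjusted p = 0.00787) ended without WT 1 (0.0564) and with DESeq2 (0.36). A neighbouring Fosb region was steadier, at 8.17, 6.96 and 11.1 CPM in WT and 17.0, 16.9 and 18.6 CPM in KO (1.0 ± 0.11, adjusted p = 1.16e-05). Rhob, an immediate early small GTPase gene, rose by 1.49 ± 0.22 (adjusted p = 0.000224, but 0.0638 with DESeq2), and by 2.80 with the covariate. Ctla2a, a gene for a cathepsin inhibitor outside these lists with a close paralog, held 6.08, 3.24 and 5.68 CPM in WT and 12.5, 14.3 and 15 CPM in KO (1.47 ± 0.14, adjusted p = 8.87e-07, and 2.34 with the covariate). Itpr1, an IP3-gated calcium channel gene, was among the 12 largest gains, but WT 1 (4.16 CPM) was close to KO (4.66 to 5.62 CPM) and the other WT libraries were at 0.852 and 0.618 CPM. Its log2 fold change of 1.40 ± 0.33 was 2.75 without WT 1 and 3.31 with the covariate, and its adjusted p of 0.0121 became 0.0509 and 0.0629 without KO 2 and KO 3 and 0.368 with DESeq2.

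**Figure D2:**
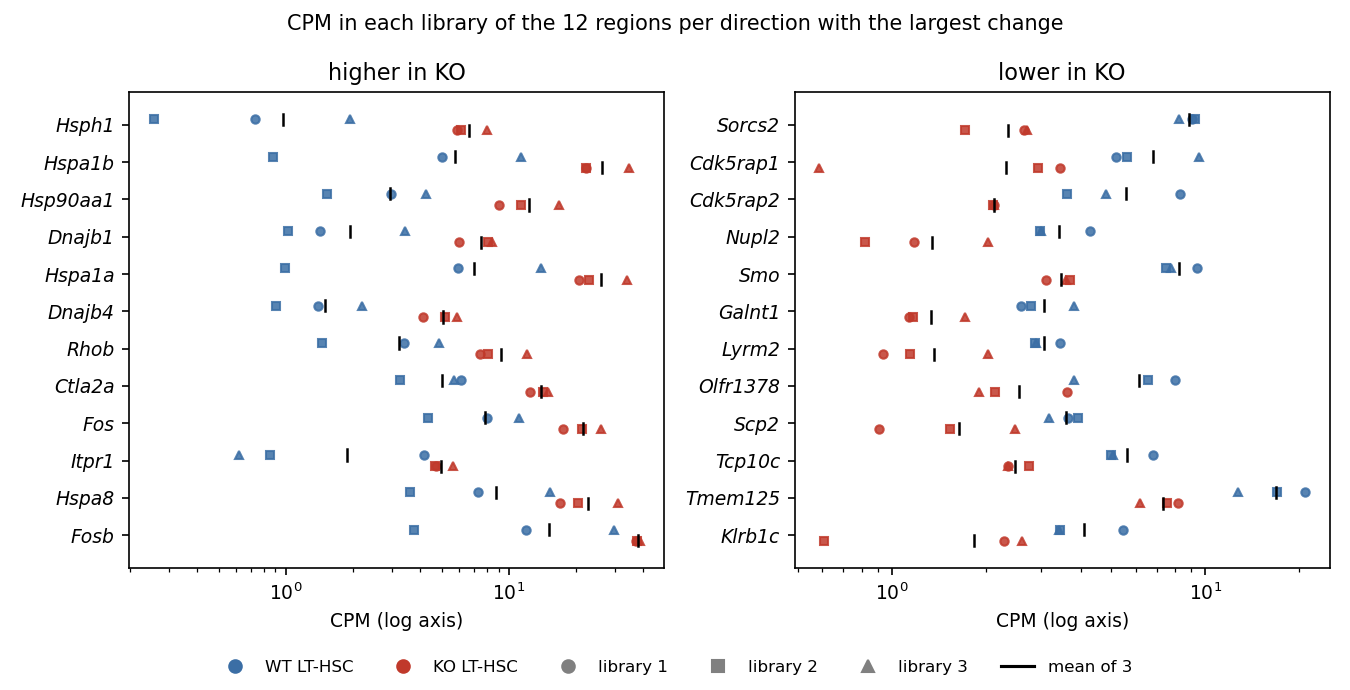
CPM in each library (x axis, log scale) of the 12 regions with the largest rise (left) and fall (right) in KO LT-HSC by the naming rule, 1 row per gene. Blue marks are WT, red marks KO, shapes give the library number and black ticks the mean of 3. The naming rule required groups that do not overlap. At most heat shock genes WT 2 and WT 3 lie at opposite ends.

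Among the called regions of these genes the fold change was larger along the body and past the 3′ end than at the start, a pattern looked for after values were seen and not tested. Weak regions need a larger change to pass, so medians over called regions differ with level. Of heat shock regions within 1 kb of a start 12 of 25 rose, with a median log2 fold change of 0.34 among those called. In gene bodies 16 of 44 rose with a median of 1.43, and within 5 kb past the 3′ end 7 of 16 with a median of 1.80. At AP-1 and other immediate early genes the counts were 9 of 43 (0.35), 23 of 70 (0.92) and 15 of 27 (0.93). Over all tested regions, called or not, the medians lay closer together, at 0.24, 0.34 and 0.31 for heat shock genes and 0.11, 0.26 and 0.39 for AP-1 and other immediate early genes. Over all genes with a listed strand 9.22% of start regions, 2.36% of gene-body regions and 2.95% of regions just past the 3′ end rose, with medians of 0.30, 0.51 and 0.52 among those called. Start regions were the stronger ones, with median levels of 36.7 CPM at heat shock genes against 2.14 CPM in their bodies. At Hspa1b the log2 fold change was 0.51 at the start and 1.35, 1.87 and 2.18 at 1.63, 2.68 and 3.37 kb from it, the gene being 2.81 kb long. At Hsph1 it was 0.24 at the start and 2.76 and 2.92 at 7.47 and 9.33 kb, and at Fos it was 0.31 at the start, -0.12 and 0.33 at 0.64 and 1.17 kb (neither passed) and 1.19, 1.26, 1.14 and 1.46 from 2.49 to 4.76 kb.

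**Figure D3:**
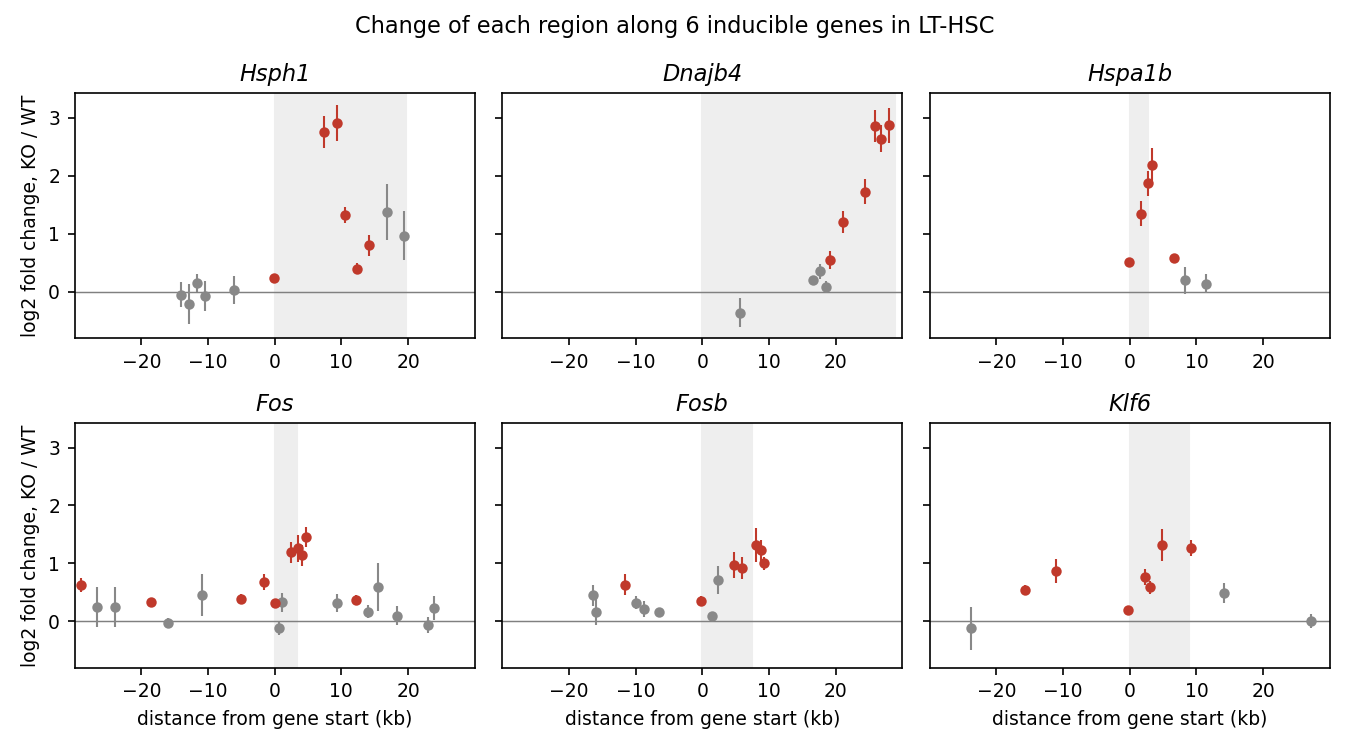
Log2 fold change of KO over WT (y axis, bars are SE) of each tested region against its distance from the outermost listed start (x axis, kb, in the direction of transcription) at 6 inducible genes. Grey bands are the genes, red points passed the test and grey points did not. At Hspa1b the points climb from 0.51 at the start to 2.18 past the end of the gene.

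Promoter regions with the lowest p were not all at inducible genes. Ccdc189, a coiled-coil protein gene, held 51.0, 52.4 and 48.1 CPM in WT and 70.6, 69.2 and 69.4 CPM in KO at its start (chromosome 7, 127588391 to 127588886). Replicates lay close together here, and the log2 fold change was 0.47 ± 0.05 (adjusted p = 8.99e-06). Cep162, a gene for a centriole and cilium protein, held 22.8, 22.7 and 22.5 CPM in WT and 31.8, 34.1 and 34.4 CPM in KO (0.56 ± 0.06). Srpk2, a kinase of splicing factors, rose by 0.85 ± 0.10 on the log2 scale, R3hdm1 by 0.42 ± 0.05 and Cd3eap, a subunit gene of RNA polymerase I, by 0.59 ± 0.07. Egr2 at its start held 42.4, 43.7 and 43.7 CPM in WT and 58.4, 63.3 and 61.9 CPM in KO. Srpk2, R3hdm1 and Cd3eap missed the threshold with the promoter and gene-end share as a covariate (adjusted p = 0.0529, 0.0672 and 0.0652), and no other alternative ended the call of these 6. A promoter region holding the hairpin of Mir484, in Marf1, rose by 0.37 ± 0.07.

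Other signalling lists had smaller shares of gains. Genes of p53 and the DNA damage response had 16 of 185 regions higher (8.65%, against 3.11% of all) and 2 lower, at 12 and 2 of 24 genes. Among them the promoters of Mdm2, the ubiquitin ligase that limits p53 (0.30 ± 0.06), and of Ccng1, a p53 target (0.29 ± 0.06), rose, and Sesn1, a stress-response gene, rose by 0.83 ± 0.16. TNF and NF-kB genes had 19 of 258 higher (7.36%) and 3 lower, and the promoter of the inhibitor gene Nfkbib rose from 57.1, 54.4 and 52.9 CPM to 69.4, 68.2 and 73.0 CPM (0.36 ± 0.05). Interferon response genes had 9 of 147 higher (6.12%) and none lower, with no region of Isg15 past the threshold and no tested region at Ifit1 or Mx1. Ribosome biogenesis genes had 7 of 96 higher (7.29%) and 2 lower, among them the start of Pes1, a large-subunit assembly factor (0.60 ± 0.10). These lists hold many strong regions. In the highest level class, where 9.56% of all regions rose, 20% of p53, 11.5% of TNF, 9.26% of interferon and 12.9% of ribosome biogenesis regions rose, so the interferon share there was that of the background. With total counts and with the loess offset 4 interferon regions rose and 2 fell. The gains of these 4 lists, in this order, numbered 8, 13, 3 and 4 without KO 1, and 7, 7, 4 and 2 without KO 2. They numbered 8, 12, 5 and 3 without KO 3, 10, 11, 3 and 2 without WT 1, and 13, 13, 5 and 4 without WT 2. With the promoter and gene-end share as a covariate they numbered 1, 2, 0 and 0.

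TGF-beta genes, a pathway of stem cell quiescence, had 26 of 530 regions higher (4.91%, against 3.11% of all) and 6 lower, and 11 of the gains lay at 2 repressors of the pathway, Ski (7 of 20 regions) and Skil (4 of 13). Ski rose from 16.7, 14.9 and 17.4 CPM to 23.8, 24.3 and 23.6 CPM at an intragenic region (0.55 ± 0.07, adjusted p = 8.52e-05), and Skil by 0.66 ± 0.11. Both calls were kept under all 17 alternatives. No region of Tgfb1, Tgfbr1 or Smad4 passed. In the highest level class 12.8% of TGF-beta and 6.90% of HSC aging regions rose, against 9.56% of all. Of HSC aging genes 14 of 252 regions rose (5.56%) and 2 fell, with 5 of 18 regions of the surface receptor gene Neo1 higher. Without KO 1, KO 2 or WT 1 the TGF-beta gains numbered 12, 9 and 13, and the HSC aging gains 7, 7 and 9. Without KO 3 or WT 2 the HSC aging gains were 6 and 8, and with the covariate 2 TGF-beta and 0 HSC aging regions rose.

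Genes of stem cell identity were near the background. Of 834 regions at HSC transcription factor and surface genes 27 rose (3.24%, against 3.11% of all) and 3 fell, at 11 and 3 of 24 genes. Erg, an ETS factor, rose at its start from 25.6, 27.0 and 30.1 CPM to 36.5, 39.6 and 40.9 CPM. Meis1 and Mllt3, other regulators of self-renewal, had 3 of 72 and 3 of 73 regions higher, and Hoxb4 rose at its start by 0.42 ± 0.08. Prdm16 and Kit had 1 region lower each and none higher. No region of Hlf, Tal1 or Fgd5 passed. The NuRD and PAF1 complexes (4 of 188 higher, 1 lower) also lay near the background. So did Notch and T-ALL genes (12 of 337, 2 lower) and cell cycle genes (12 of 309, 5 lower). Of the Hoxa cluster 4 of 54 regions rose (7.41%). In the highest level class 9.56% of all regions rose. There 11.9% of HSC transcription factor and surface, 4.17% of NuRD and PAF1 and 10.8% of Notch and T-ALL regions rose. Cell cycle genes had 14.3% and the Hoxa cluster 18.8% (3 of 16 regions). Leaving out 1 library gave 13 to 36 gains at HSC transcription factor and surface genes, 6 to 14 at cell cycle genes, 3 to 15 at Notch and T-ALL genes, 0 to 3 at the NuRD and PAF1 complexes and 0 to 2 in the Hoxa cluster. Leaving out KO 2 gave the lowest of these counts in each list, tied at HSC transcription factor and surface genes and cell cycle genes with KO 3 and at the Hoxa cluster with KO 3 and WT 2. At Ccnd1, the cyclin D1 gene, 3 of 27 regions fell and 1 rose.

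Markers of other blood and stromal cells had few calls, with shares of gains beside 3.11% of all regions that rest on 1 to 4 regions each. T cell genes had 2 of 125 regions higher, B cell genes 1 of 112, NK cell genes 2 of 74 with 2 lower, granulocyte genes 2 of 64 with 1 lower, mast cell and basophil genes 1 of 61 with 1 lower, megakaryocyte genes 4 of 84 with 1 lower, erythroid genes 2 of 80 and endothelial and stromal genes 4 of 164 with 1 lower. Monocyte and macrophage genes had 3 of 133 higher and 5 lower (3.76%, against 1.52% of all). Among these Itgam, the CD11b gene, had 0.640, 0.880 and 0.853 CPM in WT and 0.303, 0.320 and 0.180 CPM in KO at 1 weak region, a call that ended without KO 3 (adjusted p = 0.0127, and 0.0607 without it) and with the covariate (0.176). The summed promoter and gene-end level of the monocyte list was 91.4 to 95.6 CPM in WT and 96.6 to 97.7 CPM in KO, and that of the T cell list 85.2 to 93.8 and 87.9 to 90.8 CPM. That of the endothelial and stromal list was 86.6 to 100 CPM in WT and 101 to 104 CPM in KO. The erythroid sum was 212 to 217 CPM in WT and 223 to 225 CPM in KO, and the granulocyte sum 54.7 to 60.7 and 61.2 to 63.9 CPM. The monocyte, endothelial, erythroid and granulocyte sums were higher in each KO library than in any WT library, and their part in other results was not tested. This gap was not limited to cell type markers. The TNF and NF-kB list (WT 815 to 853, KO 894 to 911 CPM) and the p53 list (WT 761 to 776, KO 840 to 853 CPM) had it too. So did the heat shock list (WT 1290 to 1400, KO 1570 to 1620 CPM) and the AP-1, interferon and HSC aging lists. The HSC transcription factor and surface, cell cycle, ribosome biogenesis, Notch and T-ALL and Hoxa lists had the gap as well. Lists that overlapped included T cell, B cell and TGF-beta genes and the NuRD and PAF1 complexes. Whether these sums differ from the higher promoter and gene-end share of all KO libraries was not tested. Multipotent and lymphoid progenitor genes had 12 of 254 regions higher (4.72%) and 1 lower, with 3 of 48 at Mef2c and 2 of 23 at Cd34. Without KO 2, KO 3, WT 1 or WT 2 these gains numbered 2, 3, 3 and 5, and the 5 monocyte losses numbered 2, 3, 3 and 4. The 4 megakaryocyte gains numbered 0 without KO 1 or KO 2, 1 without KO 3 and 2 without WT 1, and the 4 endothelial gains 0 without KO 2 and 1 without KO 3 or WT 1. No erythroid gain was left without KO 2, KO 3 or WT 1, and no granulocyte gain without KO 1, KO 2 or KO 3.

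**Figure D4:**
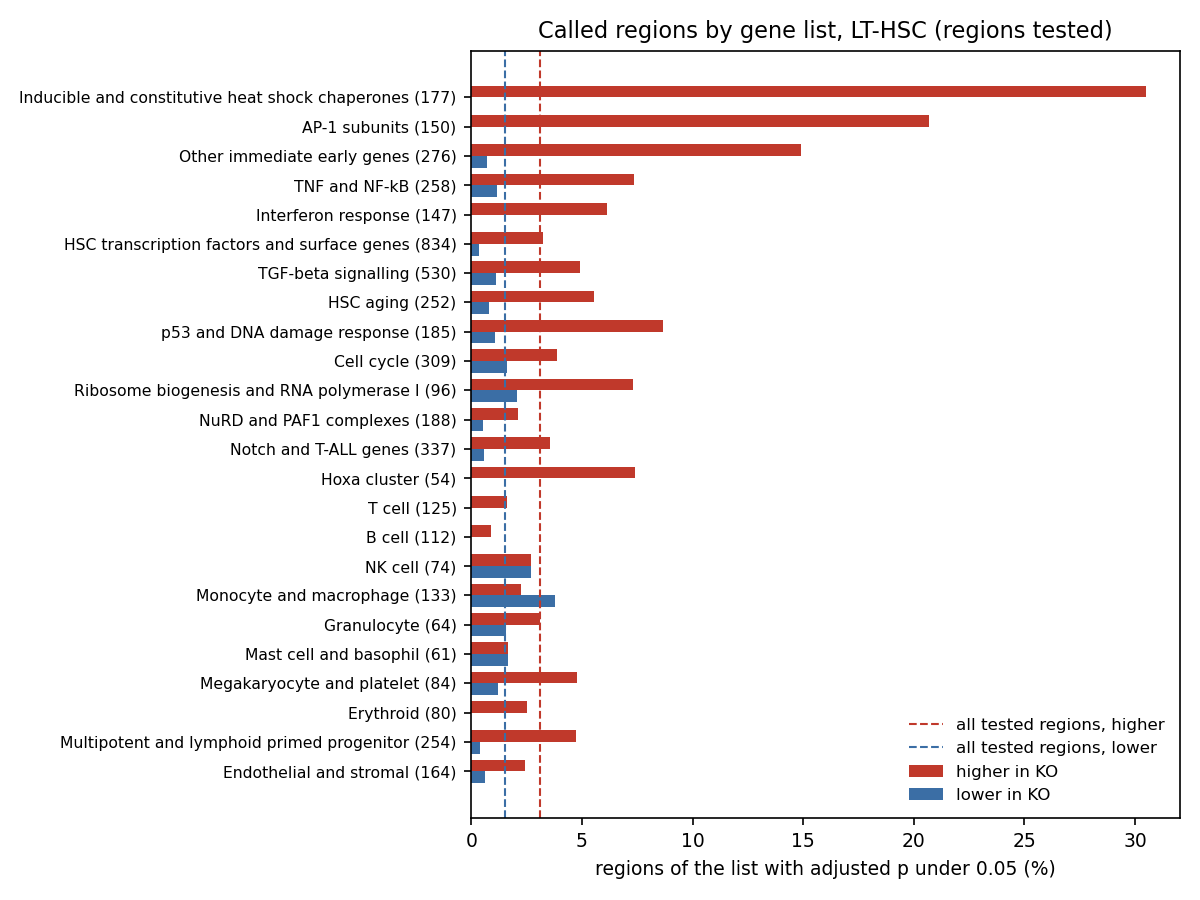
Percent of the tested regions of each gene list that were higher (red) or lower (blue) in KO LT-HSC, with the number of tested regions in brackets. Dashed lines are the shares over all tested regions, 3.11% higher and 1.52% lower. Heat shock and AP-1 genes, at 30.5% and 20.7% higher, stand farthest to the right.

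A few genes held many losses. A second loss lay within 50 kb of 23.3% of 2676 losses, and a second gain within 50 kb of 46.1% of 5489 gains. Of all tested regions 98.7% had another within 50 kb. Such shares rise with the number of regions, so they do not compare the directions. The genes with most losses were picked by that number, and 1.52% of all tested regions fell. Sorcs2, a gene for a sortilin-family receptor, had 29 of 62 regions lower and none higher. Its strongest fall (chromosome 5, 36113695 to 36114140) was from 9.10, 9.26 and 8.24 CPM in WT to 2.64, 1.71 and 2.70 CPM in KO, with a log2 fold change of -1.91 ± 0.14 and an adjusted p of 8.26e-09. Summed over its lower regions Sorcs2 held 147 to 151 CPM in WT and 73.9 to 83.2 CPM in KO. Sfi1, a centrin-binding protein gene, had 15 of 39 lower and 1 higher, and Speer4d, of a gene family with many copies, 6 of 22. Both loci may hold repeated sequence where reads map to several places, so these counts are uncertain. Cnih3, an AMPA receptor partner, Cntnap2, of the neurexin family, and Frmd4a, a polarity scaffold, had 5 lower regions each, of 35, 70 and 85, and the latter 2 had 1 higher region each. By number of gains, Jmjd1c (8 of 40 regions) and Pde4d (8 of 152) were among the first 6 genes, though outside the gene lists. Over all tested regions 3.11% rose.

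Smo, the signal transducer of Hedgehog, fell in its gene body (chromosome 6, 29747764 to 29748709) from 9.45, 7.52 and 7.80 CPM to 3.11, 3.70 and 3.60 CPM. The groups lay far apart, though the naming rule already required no overlap. The log2 fold change was -1.26 ± 0.13 (adjusted p = 2.53e-06). A region 2828 bp from Tmem125, a membrane protein gene, fell from 20.9, 17.0 and 12.7 CPM to 8.20, 7.54 and 6.21 CPM (-1.19 ± 0.13, adjusted p = 7.15e-06). The Sorcs2, Smo and Tmem125 calls were kept under all 17 alternatives. Cdk5rap2, a centrosome protein gene, fell by 1.41 on the log2 scale, from 8.34, 3.63 and 4.82 CPM to 2.12, 2.1 and 2.11 CPM. That value was -0.35 with the promoter and gene-end share as a covariate (adjusted p = 0.7), which also ended the calls of Cdk5rap1, Galnt1, Nupl2, Lyrm2, Olfr1378, Scp2, Tcp10c and Klrb1c. The log2 fold changes of these 8 were -1.46 to -1.17 and, with the covariate, -1.59 at Cdk5rap1, -1.36 at Olfr1378 and -1.10 to -0.80 at the others. Leaving out KO 2 or WT 1 ended the call of Klrb1c as well (adjusted p = 0.0641 and 0.0776), and its log2 fold change of -1.17 was -0.76 without KO 2. DESeq2 ended the calls of Cdk5rap1, Olfr1378, Scp2 and Klrb1c.

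Fewer promoters fell. Ube2l6, the gene of an enzyme that attaches the interferon-induced ISG15 protein, held 8.75, 8.94 and 9.09 CPM in WT and 5.64, 5.09 and 5.49 CPM in KO at its start (chromosome 2, 84798563 to 84799016). It fell by 0.72 on the log2 scale (SE 0.11, adjusted p = 0.000231). The interferon list does not hold this gene. F10, the coagulation factor X gene, held 5.58, 6.64 and 5.91 CPM in WT and 3.47, 3.34 and 4.0 CPM in KO. Fbp2 and Ryr2, muscle genes, had log2 fold changes of -0.61 ± 0.10 and -0.86 ± 0.15, and the multi-copy Duxf3 of -1.11 ± 0.20 (uncertain for the same reason as Speer4d). Each of these 5 promoter calls, and that of Sspn below, ended with the promoter and gene-end share as a covariate and under no other alternative. Their log2 fold changes with it were -0.77 at Ube2l6, -0.94 at F10, -0.65 at Fbp2, -0.85 at Ryr2, -0.53 at Sspn and -0.51 at Duxf3.

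The MPP libraries are other libraries than those of this comparison, but may come from the same animals, so they are not known to be independent of it. In MPP 5.15% of 179470 tested regions rose in KO and 3.68% fell. Without KO 2, KO 3 or WT 1 of MPP, 2539, 3145 and 5299 regions rose there and 1548, 1912 and 3780 fell. Of the 5489 gains in LT-HSC 2426 (44.2%) were also gains in MPP, which is 26.3% of the 9237 gains of MPP, and 2 were losses. Of the 2676 losses 807 (30.2%) were also losses in MPP, 12.2% of its 6600, and 8 were gains. The median log2 fold change in MPP was 0.30 for the LT-HSC gains and -0.42 for the losses. Hsph1 rose in MPP from 2.22, 0.701 and 2.43 CPM to 10.6, 9.56 and 8.49 CPM, and WT 2 was again the lowest library. Of the 177 heat shock regions 61 rose in MPP (34.5%, against 5.15% of all) and 2 fell. In MPP the Sorcs2 region was weaker, at 0.912 to 1.27 CPM in WT and 0.541 to 0.698 CPM in KO, and it fell there too (-0.89 ± 0.24, adjusted p = 0.0242). The difference of its change between LT-HSC and MPP did not pass (adjusted p = 0.403), nor did that of Hsp90aa1 (2.06 in LT-HSC and 1.12 in MPP, adjusted p = 0.495).

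When the difference of the KO effect between LT-HSC and MPP was itself tested over 186373 regions, with the libraries not paired, none was more positive in LT-HSC (0.00%) and 15 were more negative (0.00805%), while 14082 (7.56%) had an unadjusted p under 0.05. Of the 15, 9 were losses in LT-HSC, 11 were gains in MPP and 5 were both. A region in Gphn, the gephyrin gene, held 46.5 to 47.6 CPM in WT and 35.9 to 40.6 CPM in KO LT-HSC, and 62.5 to 68.8 and 79.8 to 91.3 CPM in MPP. The promoter region of Sspn, the sarcospan gene, held 12.6, 11.8 and 13.1 CPM in WT and 8.97, 8.50 and 7.69 CPM in KO LT-HSC, and did not pass in MPP (0.14 ± 0.08). Without KO LT-HSC 2 no region passed in either direction. The more negative regions numbered 2 without KO LT-HSC 3 and also without WT LT-HSC 1, 7 without WT LT-HSC 2, 9 without KO MPP 2 and 5 without KO MPP 3. The more positive regions numbered 13 without WT LT-HSC 3, 3 without KO MPP 1, 1 without WT MPP 1 and 9 without WT MPP 3.

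**Figure D5:**
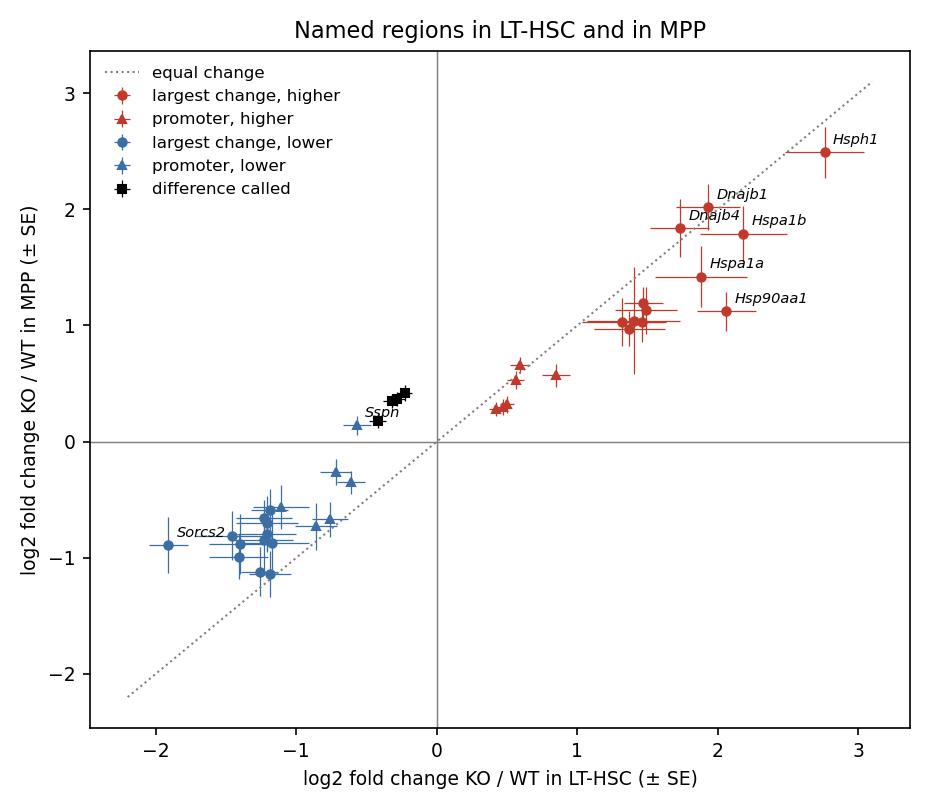
Log2 fold change of KO over WT in LT-HSC (x axis) and in MPP (y axis) of named regions, with bars of SE. Red and blue circles are the regions with the largest rise and fall, triangles promoter regions, black squares regions whose difference passed, and the dotted line marks equal change. The red and blue circles have the same sign in both populations, while Sspn and the black squares are below 0 in LT-HSC and above 0 in MPP.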

How the data were processed

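Nuclei of sorted cells were measured by ATAC-seq in 12 libraries, of which 3 KO and 3 WT LT-HSC libraries form the comparison. The values are read counts per region as deposited by the authors, in 1 table of 188262 regions in build GRCm38. Per the submitters' processing notes the tools were MACS2 2.1.1, DESeq2 1.22.1, Bowtie2, featureCounts and cutadapt. The sources used here do not give their order, their settings or how peaks of libraries were joined. Regions merged over libraries and counts without strand do not separate overlapping genes.

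Counts were tested in R 4.3.3 with the quasi-likelihood F test of edgeR 4.0.16 (2-sided, TMM, low-count filter, Benjamini-Hochberg, threshold 0.05), in the 6 LT-HSC libraries alone, in the 6 MPP libraries alone, and for the difference in all 12. Log2 fold changes are those of the edgeR fit and are given ± SE. The SE is the absolute log2 fold change divided by the square root of the F statistic. A prior count of 2 was used only for the log2 CPM that set the level classes. Regions were assigned to RefSeq protein-coding genes of the same build, by overlap or else to the nearest within 100 kb. With 3 against 3 libraries an exact permutation test cannot give a p below 0.1, so single regions rest on the fit over all regions. On simulated counts with 100 regions changed by each fold among 174544, 52% of 1.5-fold and 96% of 2-fold changes were recovered, with 12 false calls of 160. The changed regions were drawn only from those above a set mean count, and all regions had the same dispersion. No trend on level or shift of composition between libraries was simulated. These rates therefore need not hold for weak regions or for the real libraries. Alternatives were limma 3.58.1, DESeq2 1.42.0, other scalings and filters, a covariate, a replicate block, a block within genotype chosen after seeing the data, and leaving out each library. Named were all Phf6 regions, the 12 largest called changes per direction above the median level with no overlap of groups, the 6 promoters of lowest p per direction, up to 4 regions per list, the 6 genes with most calls per direction and the 4 regions of lowest p for the difference. Genes given only by their counts within a list, and single genes named for having no call, were picked from whole lists after values were seen. The members and lists were chosen with earlier results of these data known.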

Additional observations from a re-analysis of the deposited data

Results flagged for a closer look

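The KO effect differed between LT-HSC and MPP, by the test of the difference itself, at 15 regions, all more negative in LT-HSC. Among these the promoter region of Sspn had a difference of -0.70 on the log2 scale (adjusted p = 0.0309). A region on chromosome 3 (5860442 to 5860845) with no protein-coding gene within 100 kb had a difference of -0.63. It held 156 to 168 CPM in WT and 125 to 148 CPM in KO LT-HSC, and 199 to 224 and 260 to 303 CPM in MPP. The regions at Gphn, near Myl12b and at Cdk8 had differences of -0.65, -0.58 and -0.63 (adjusted p = 0.00227, 0.00653 and 0.00653). KO MPP 3 was the highest MPP library in 14 of the 15 and KO LT-HSC 3 the lowest LT-HSC library in 10, and the part of these libraries was not tested. A region among the 15 overlaps the ribosomal RNA pseudogene Rn18s-rs5.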

How the results depend on the processing

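In LT-HSC 3622 regions rose and 862 fell with DESeq2 (85512 regions had no adjusted p), 3055 rose with a loess offset, 3202 rose with total counts, and 395 rose and 154 fell with the promoter and gene-end share as a covariate. Leaving out 1 library gave 1875 to 6013 gains and 632 to 3000 losses in LT-HSC, and 2539 to 9240 gains and 1548 to 6871 losses in MPP. For the difference between LT-HSC and MPP it gave 0 to 13 regions more positive and 0 to 20 more negative in LT-HSC. The loess offset gave 5 and 25 there. The cause of these shifts was not tested. Leaving out a library also lowers the number of libraries, and that effect was not separated from the part of the library itself. No region called in LT-HSC was called in the opposite direction under any of the 17 alternatives. Of 114 named calls 22 held under every alternative that gave an adjusted p for the region. Some regions had none under some alternatives. With the covariate 85 calls ended, with DESeq2 20, with the loess offset 18 and with total counts 14. On leaving out some library 44 ended. Uncalled Phf6 values changed sign. The gene-end region moved from 0.04 to -0.03 (loess), -0.01 (total counts) and -0.07 (covariate), and 3 others moved to -0.19, -0.11 and 0.68 with the covariate. The last ranged from -0.41 to 0.02 on leaving out a library.

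With a replicate block 6367 regions rose and 3126 fell in LT-HSC, and 19 and 29 regions had a more positive and a more negative effect in LT-HSC than in MPP. Libraries of the same number in KO and WT LT-HSC did not deviate together (correlations of 0.004, -0.025 and 0.034), so the samples share only a number. Between LT-HSC and MPP of 1 genotype, same-number libraries correlated at 0.054 to 0.114 and others at -0.078 to -0.006, and each of the 12 libraries correlated best with its own number. This is a hint from the data, not the design. A replicate block within genotype, chosen after seeing the data, gave 142 regions more positive and 91 more negative in LT-HSC, with all 15 of the unpaired test among the latter. Depth of 22665988 to 37008294 counts limits weak regions: 11838 were not tested.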
